A study of Mus musculus with 384 samples.

Results

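The 8 chemokine ligands described here are Ccl3, Ccl4, Ccl6, Ccl9, Cxcl1, Cxcl2, Cxcl10 and Cxcl16, chosen by name from a table of 23420 genes and measured in single cells sorted from mouse spinal cord. Every cell came from tissue labelled Optn KO, a genotype without optineurin, which is an adaptor of autophagy and of inflammatory signalling. Cells stained for CD45, CD11b and CX3CR1 were sorted into plates and turned into full-length cDNA libraries by SmartSeq2. Of 384 labelled cells, 326 have values here and 58 were not analysed. All groups below are groups of cells that share the Optn KO genotype, and no cells without it were analysed here; the labels give no age, sex, treatment, strain or time. Plates 1 and 2 make up replicate 1 and plates 3 and 4 replicate 2. The labels do not say whether the 2 replicates are separate mice, so p-values measure only the spread between these samples, which may be technical.

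Chemokines are small secreted proteins that attract leukocytes by binding receptors on their surface. Cxcl1 and Cxcl2 bind Cxcr2 and recruit neutrophils. Ccl6 and Ccl9 are CC ligands of rodent myeloid cells that bind Ccr1, as does Ccl3, which like Ccl4 is a macrophage inflammatory protein. Cxcl10 is induced by interferon and binds Cxcr3, and Cxcl16 is made as a membrane-bound protein and binds Cxcr6. Many of these genes are switched on within minutes of a stimulus through NF-kB, a transcription factor that in turn induces its own inhibitors. Neutrophils make their granule proteins while they mature in the bone marrow, and the mRNAs of these proteins decline as the cells mature.

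A cell was counted as a neutrophil when S100a8 plus S100a9, the calprotectin subunits, reached 10000 TPM (transcripts per 1000000, a share of the cell's total per transcript length). This gave 286 neutrophils, 131 in replicate 1 and 155 in replicate 2, and 40 other cells, 23 and 17. No cell lay between 4019.2 TPM, the highest other cell, and 12512.4 TPM, the lowest neutrophil. At least 3 of 10 neutrophil markers were above 0 in all 286 neutrophils. At least 3 of 10 monocyte markers were above 0 in 28 of the other cells and in 8 neutrophils, and at least 3 markers of T or natural killer cells in 3 other cells, of B cells in 2 and of oligodendrocytes in 1. Neutrophil markers reached 3 in 31 other cells too. Over all 40 other cells the median summed level of these markers was 99.2 TPM and the highest 16513 TPM. The median in neutrophils was 251731 TPM. No cell of either class had 3 of the 13 microglia markers above 0, although the series title names microglia. The median number of genes above 0 was 1604.5 in neutrophils and 3027.5 in other cells, and it stood in for sequencing depth, which TPM does not keep. Optn was listed at 0 in all 326 cells, which allows a share of up to 0.920% by a limit of 3 cells.

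Of the 6 cells inside the border, with 12512.4 to 19993.4 TPM of S100a8 plus S100a9, 4 had Ccl6 above 0, 4 had Cxcl2, 2 had Ccl9 and 1 had Ccl4. Of the 6 highest cells outside it, with 1433.86 to 4019.2 TPM, 4 had Ccl6 above 0, 2 had Cxcl2, 2 had Ccl3 and 1 had Ccl9. At least 3 monocyte markers were above 0 in 1 of the 6 cells on each side. The outside cell with 9 such markers had 3570 genes above 0, and the rest outside had 1161 to 1513. The outside cells include the 3 other cells highest in Ccl6, at 8238, 6161 and 4208 TPM. Their 2 cells with Cxcl2 had 8298 and 2307 TPM, the latter the only replicate 2 other cell with Cxcl2.

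The members lie in 2 gene clusters and at 1 separate site. In the GENCODE M21 annotation of GRCm38, the build named mm10 in the submitters' notes, the chromosome 5 members are Cxcl1 at chr5:90891241-90893115 and Cxcl2 at chr5:90903871-90905938 on the plus strand and Cxcl10 at chr5:92346638-92348889 on the minus strand. On chromosome 11 lie Ccl9 at chr11:83572919-83578636, Ccl6 at chr11:83587882-83593087 and Ccl3 at chr11:83647844-83649355 on the minus strand and Ccl4 at chr11:83662584-83664683 on the plus strand. Cxcl16, at chr11:70453983-70459984 on the minus strand, stands apart from them. The 250 bases before the start of 4 members follow to show the windows with and without the motifs searched: Cxcl1, Cxcl2 and Cxcl10 hold one, and Ccl6, the most widely detected ligand, holds none. The sequences are from RefSeq on GRCm38.p6 and read 5′ to 3′ along the gene. Capitals mark the motif GGANNTTCC, which resembles an NF-kB site, and in Cxcl10 also GAAANNGAA, which resembles an interferon response element.

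Cxcl1 (chr5:90890995-90891244, plus strand): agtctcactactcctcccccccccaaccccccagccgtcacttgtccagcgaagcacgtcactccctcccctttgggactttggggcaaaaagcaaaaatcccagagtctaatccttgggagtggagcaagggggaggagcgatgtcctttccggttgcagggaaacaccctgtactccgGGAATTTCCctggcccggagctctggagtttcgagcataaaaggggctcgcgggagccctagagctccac

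Cxcl2 (chr5:90903649-90903898, plus strand): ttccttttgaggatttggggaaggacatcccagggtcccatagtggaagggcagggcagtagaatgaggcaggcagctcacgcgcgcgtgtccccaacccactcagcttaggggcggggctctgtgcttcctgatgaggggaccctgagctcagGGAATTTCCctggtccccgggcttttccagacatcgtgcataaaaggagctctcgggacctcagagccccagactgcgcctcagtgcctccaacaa

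Cxcl10 (chr5:92348890-92349139, minus strand): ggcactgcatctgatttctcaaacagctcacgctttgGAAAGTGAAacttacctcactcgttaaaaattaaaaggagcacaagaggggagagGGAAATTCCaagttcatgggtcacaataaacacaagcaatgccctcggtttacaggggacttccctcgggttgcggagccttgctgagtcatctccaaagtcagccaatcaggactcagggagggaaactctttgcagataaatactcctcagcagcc

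Ccl6 (chr11:83593088-83593337, minus strand): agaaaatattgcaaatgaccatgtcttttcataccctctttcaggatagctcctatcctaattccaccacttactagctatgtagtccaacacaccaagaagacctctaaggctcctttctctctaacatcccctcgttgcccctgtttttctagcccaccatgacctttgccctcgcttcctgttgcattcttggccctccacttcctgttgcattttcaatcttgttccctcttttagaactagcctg

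GGANNTTCC, searched on both strands, was in the windows of Cxcl1, Cxcl2 and Cxcl10, which is 3 of 6 members with a window in the table, and in 3.59% of all 32851 promoter windows. Its first base lay 70, 96 and 158 bases before the RefSeq start in Cxcl1, Cxcl2 and Cxcl10. Cxcl1 and Cxcl2 share a run of 14 bases there, gggaatttccctgg, the longest run common to both windows. GAAANNGAA was in Cxcl10 and, on the other strand, in Ccl3, and in 7.13% of all windows. ATAAAAG, which resembles a TATA box, was in Cxcl1, Cxcl2 and Ccl9 and in 4.83% of all windows; it overlaps neither of the other motifs. Neither Ccl6 nor Ccl9 held GGANNTTCC, which says only that these letters are not in these windows.

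Ccl6 was the most widely detected ligand in both classes and the most abundant in neutrophils, where Cxcl2 was second. In other cells Ccl3 had the highest average in replicate 1 and Ccl6 in replicate 2. Ccl6 was above 0 in 183 of 286 neutrophils (64.0%, exact 95% binomial interval 58.1% to 69.6%) and in 32 of 40 other cells (80.0%, 64.4% to 90.9%). Cxcl2 was above 0 in 131 neutrophils (45.8%, 39.9% to 51.8%) and in 4 of 40 other cells (exact interval 2.79% to 23.7%). Ccl9 was above 0 in 54 neutrophils (18.9%, 14.5% to 23.9%) and in 28 other cells (70.0%, 53.5% to 83.4%). Ccl4 was above 0 in 24 neutrophils (8.39%, 5.45% to 12.2%) and 7 other cells (17.5%, 7.34% to 32.8%). Ccl3 was above 0 in 16 neutrophils (5.59%, 3.23% to 8.93%) and 15 other cells (37.5%, 22.7% to 54.2%). The other 3 members were rare. Cxcl1 was above 0 in 6 neutrophils and 0 of 40 other cells, which allows a share of up to 7.50% of cells with a value above 0 by a limit of 3 cells. Cxcl10 was above 0 in 3 neutrophils and 1 other cell, and Cxcl16 in 1 neutrophil and 0 other cells. These intervals and limits cover counting error only, and cells of 1 sample share their source.

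**Figure D1:**
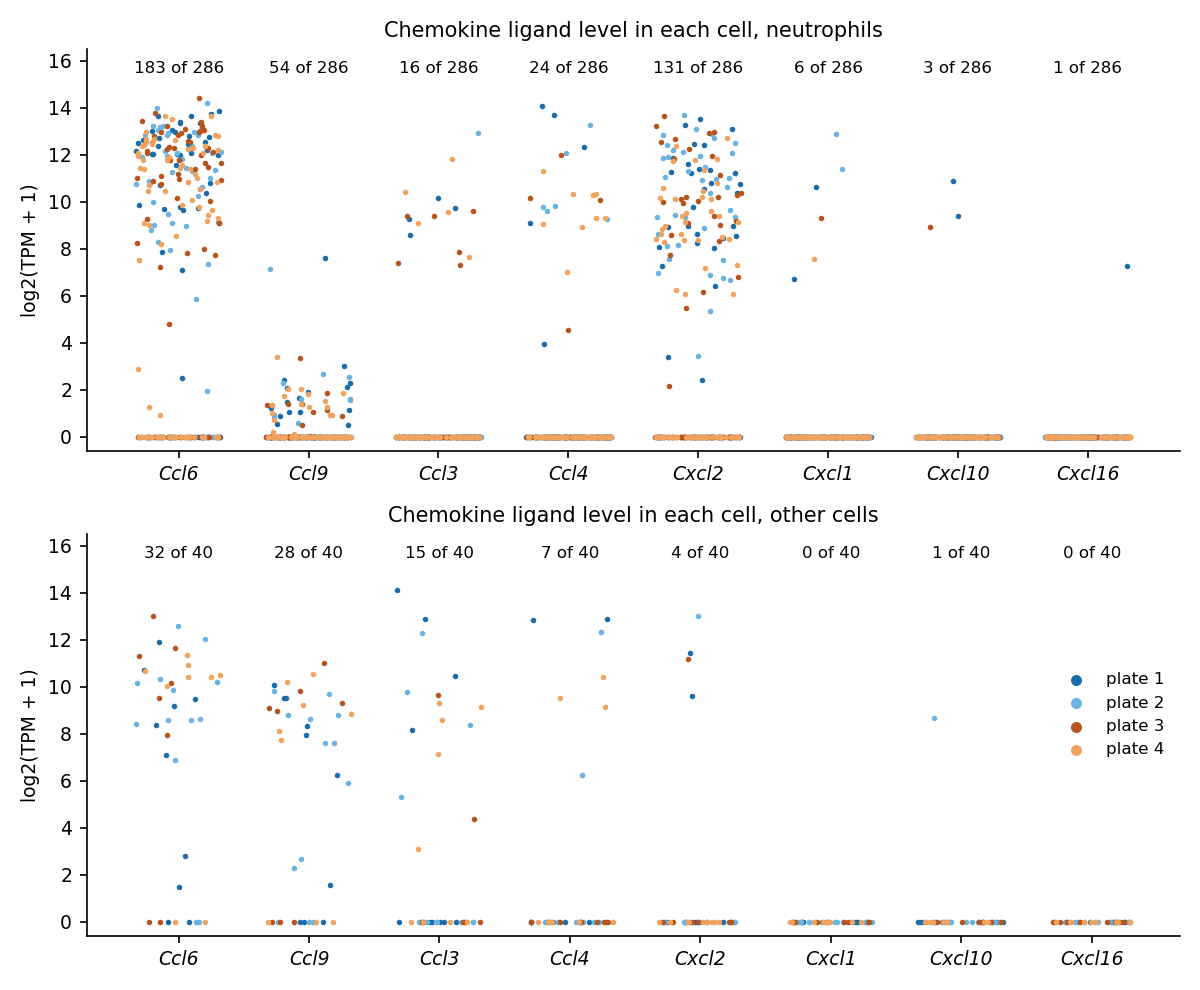
Level of each ligand in each cell as log2(TPM + 1), with neutrophils in the upper and other cells in the lower panel; each point is 1 cell, coloured by plate, and the count of cells above 0 stands over each column. Ccl6 and Cxcl2 fill a band of high values in neutrophils, while Ccl9 sits near 0 there and high in the other cells.

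**Figure D2:**
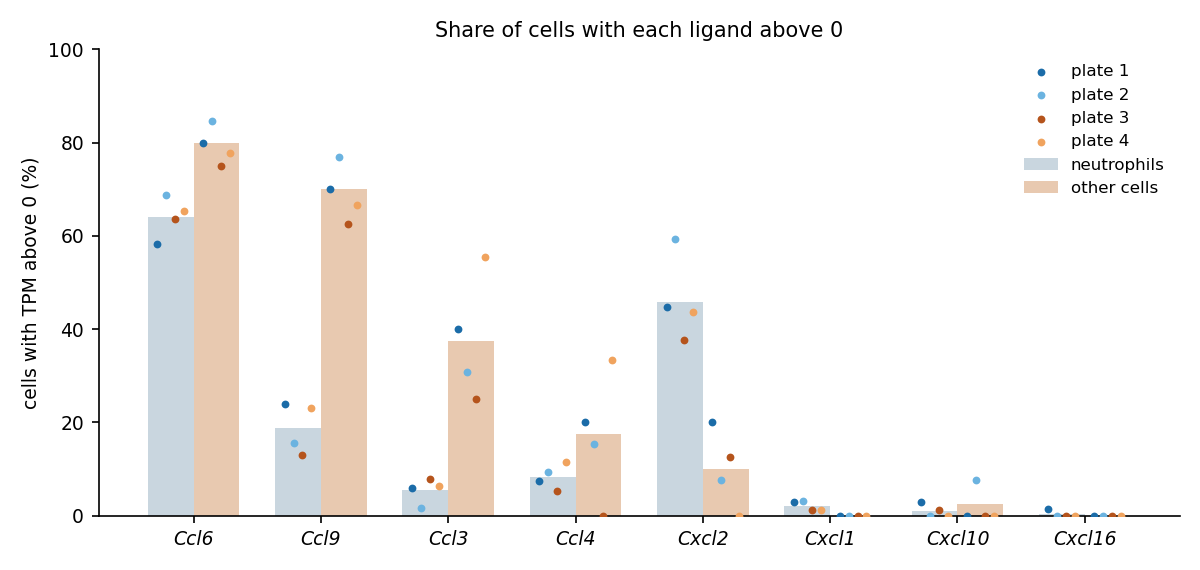
Percent of cells with TPM above 0 for each ligand; bars are all cells of a class and points are the 4 plates. In every plate Ccl9 and Ccl3 were above 0 in a larger share of other cells than of neutrophils, and Cxcl2 in a larger share of neutrophils.

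The shares were alike across plates for Ccl6 in neutrophils, between 58.2% on plate 1 and 68.8% on plate 2. Those of Cxcl2 ranged from 37.7% on plate 3 to 59.4% on plate 2. Ccl9 in neutrophils was a special case of low values: 52 of its 54 cells were below 10 TPM and 14 below 1 TPM, against 3 of 28 other cells below 10 TPM. With a value of at least 10 TPM required, 2 neutrophils (0.699%) and 25 other cells (62.5%) had Ccl9. For comparison, 7.09% of all values above 0 in the table were below 1 TPM, against 25.9% of those of Ccl9 in neutrophils. In the GENCODE transcripts, 1.97% of the runs of 50 bases of Ccl9 also occur in other genes, as do 5.84% of those of Cxcl2, all in Cxcl3; the remaining 6 members shared none. The part of such sharing in the low Ccl9 values was not tested. The same holds for genes that overlap a member on the map, Zmynd15 for Cxcl16, E230016K23Rik for Ccl6 and Art3 for Cxcl10, since the sources used here do not say whether strand was used.

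For levels, TPM was averaged over the cells of a class in each replicate. Because an average over cells mixes the share of cells and the level per cell, fewer cells with a gene and less of it per cell cannot be told apart in these averages. Differences are on the scale log2(mean TPM + 1), tested by limma where replicate is a block, and p-values were adjusted over all genes tested by Benjamini-Hochberg. Between neutrophils and other cells, 7091 genes were tested. Of these, 22.6% were called at an adjusted p under 0.05, 5.23% higher in neutrophils and 17.4% lower, and the median difference of all genes was -0.61. With the mean of log2(TPM + 1) over cells in place of the log2 of the mean, 376 were higher and 2704 lower, against 371 and 1231. Rescaling the cells without S100a8, S100a9 and the ribosomal RNA precursor Rn45s moved that median to -0.40. Of the 8 members, 5 passed the filter on low values (a mean of at least 5 TPM over the averages and at least 10 cells above 0). Among them 2 were higher in neutrophils, 2 were lower and 1 was not called. Cxcl1, Cxcl10 and Cxcl16 were above 0 in too few cells to be tested.

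Cxcl2 averaged 1333 and 781 TPM in neutrophils of replicates 1 and 2, and 516 and 136 TPM in other cells. Both neutrophil averages lay above both others, but the share of all tested genes without overlap was not counted. The log2 difference was 1.94 (SE 0.31, adjusted p = 0.000946), or 2.55 relative to the median gene. The call rested on where 6 cells were placed: with the border at 20000 TPM the difference was 0.70 (adjusted p = 0.0684). It was also lost without the replicate block (adjusted p = 0.102), with averages per plate (adjusted p = 0.0724) and without replicate 1 (adjusted p = 0.128), though not in direction. Among the other cells, Cxcl2 was above 0 in 1 of 28 with at least 3 monocyte markers and in 3 of 12 with fewer; their mean levels were 27.9 and 1117 TPM.

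Cxcl1, the second Cxcr2 ligand, averaged 92.2 TPM in neutrophils of replicate 1 and 5.32 TPM in those of replicate 2, and was listed at 0 in every other cell. In its 6 cells it was at 103.09, 188.57, 636.7, 1592.17, 2708.18 and 7672.8 TPM. The cell with 7672.8 TPM was also the neutrophil highest in Cxcl2, at 13233 TPM, and held 59.5% of all Cxcl1 in neutrophils.

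Ccl6 averaged 3044 and 2686 TPM in neutrophils and 1035 and 1617 TPM in other cells. The log2 difference was 1.14 (SE 0.21, adjusted p = 0.00278), or 1.75 relative to the median gene. The direction depended on how cells were averaged: the mean of log2(TPM + 1) over cells gave -0.56 (adjusted p = 0.370). Ccl6 was above 0 in a smaller share of neutrophils than of other cells, but at a higher level where present. The median of the cells above 0 was 3885 TPM in neutrophils and 1147 TPM in other cells. The part of share and level in the change of direction was not tested. Without replicate 1 the difference was 0.74 (adjusted p = 0.107). Among the other cells, Ccl6 was above 0 in 26 of 28 with at least 3 monocyte markers and in 6 of 12 with fewer. Its mean levels there were 1134 and 1629 TPM.

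Ccl9 averaged 3.01 and 0.364 TPM in neutrophils against 290 and 520 TPM in other cells, the widest gap of the 5 tested members. It passed the filter only through the other cells and so had to differ. The log2 difference was -7.38 (SE 0.78, adjusted p = 2.83e-05). Among the other cells, Ccl9 was above 0 in 25 of 28 with at least 3 monocyte markers and in 3 of 12 with fewer, and averaged 515 and 91.3 TPM in them.

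Ccl3 averaged 83.4 and 59.5 TPM in neutrophils and 1444 and 149 TPM in other cells. The other cells differed widely between replicates. The log2 difference was -2.70 (SE 0.64, adjusted p = 0.0259), or -2.10 relative to the median gene. A single other cell on plate 1, at 17827 TPM, held 49.9% of all Ccl3 in that class. Without each gene's highest cell the difference was -3.21 (adjusted p = 0.0529). The call was also lost without the block (adjusted p = 0.132), without replicate 1 (adjusted p = 0.279) and without replicate 2 (adjusted p = 0.0530).

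Ccl4 averaged 412 and 97.7 TPM in neutrophils and 876 and 157 TPM in other cells, and these ranges overlapped. Its log2 difference of -0.89 (SE 0.33, adjusted p = 0.0708) was not called. Its sign turned to 0.74 with averages per plate, to 2.50 without replicate 1 and to 0.09 against only those other cells that had at least 3 monocyte markers.

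Cxcl10 averaged 19.7 and 3.17 TPM in neutrophils and 17.8 and 0 TPM in other cells. Cxcl16 was at 151.47 TPM in 1 neutrophil of replicate 1 and listed at 0 elsewhere. Neither was tested.

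Of the NF-kB list, described among neutrophils further on, 1 of 19 tested genes was higher in neutrophils (Il1b) and 1 lower (Cd83), of the interferon-induced list 1 of 14 higher and 3 lower, and of the immediate early list 1 of 17 higher and 5 lower; over all genes 5.23% were higher and 17.4% lower. Against only those other cells with at least 3 monocyte markers, the NF-kB list had 7 of 18 higher and 1 lower. The immediate early list had 7 of 16 higher and 3 lower there. Of all 6960 genes tested in that setting, 598 were higher and 1486 lower. Without replicate 1 the immediate early list had 0 called, where 43 of 5506 genes were higher and 126 lower. Without replicate 2 it had 0 higher and 3 lower, where 133 of 6266 genes were higher and 388 lower.

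In neutrophils Ccl6 made up 67.0% of the summed TPM of the 8 members, Cxcl2 24.3%, Ccl4 5.68%, Ccl3 1.66% and Cxcl1 1.06%, with the remaining 3 below 1%. In other cells Ccl6 made up 36.6%, Ccl3 25.5%, Ccl4 16.3%, Ccl9 11.1% and Cxcl2 10.1% of the pooled sum, but this order held in neither replicate: by average TPM, Ccl3 came first and Ccl9 behind Cxcl2 in replicate 1, and Ccl6 first and Ccl9 second in replicate 2. The 8 members together took a median of 1946 TPM per neutrophil and 1680 TPM per other cell. The highest neutrophil had 31407 TPM, or 3.14% of its mRNA, in these 8 genes.

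Of 32 further chemokine ligands in the table, 4 were above 0 in at least 5% of either class. Ccl2, a monocyte attractant, was above 0 in 5 of 40 other cells, with a mean of 27.7 TPM, and in 0 neutrophils. Ccl5, a ligand of T and natural killer cells, was above 0 in 2 other cells, at 2559 and 6529 TPM, and in 0 neutrophils. Ccl27a was above 0 in 2 other cells and 2 neutrophils. Cxcl11, like Cxcl10 a Cxcr3 ligand, was above 0 in 25 neutrophils and 2 other cells, but at no more than 8.17 TPM.

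The members differed in how few cells held their transcripts. For each gene, cells were ranked by TPM and the smallest number that held 50% of the gene's sum was counted. In neutrophils this took 39 cells for Ccl6, 18 for Cxcl2, 3 for Ccl4, 2 for Ccl3 and 1 for Cxcl1, against a median of 8 cells over the 5856 genes with a mean of at least 5 TPM and 10 cells above 0 in that class. The highest 10 neutrophils held 18.7% of Ccl6, 33.4% of Cxcl2, 87.8% of Ccl4 and 91.6% of Ccl3, against a median of 58.9% over the same genes. In the other cells it took 7 cells for Ccl9, 6 for Ccl6, 2 each for Ccl3 and Ccl4 and 1 for Cxcl2. The median over 4350 genes was 4. Cxcl1 in neutrophils (6 cells above 0) and Ccl4 and Cxcl2 in other cells (7 and 4) fell short of 10 cells. They are thus outside the genes behind these medians. Those genes were above 0 in a median of 16.4% of neutrophils and 42.5% of other cells. Rare detection and uneven level cannot be told apart in these counts.

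**Figure D3:**
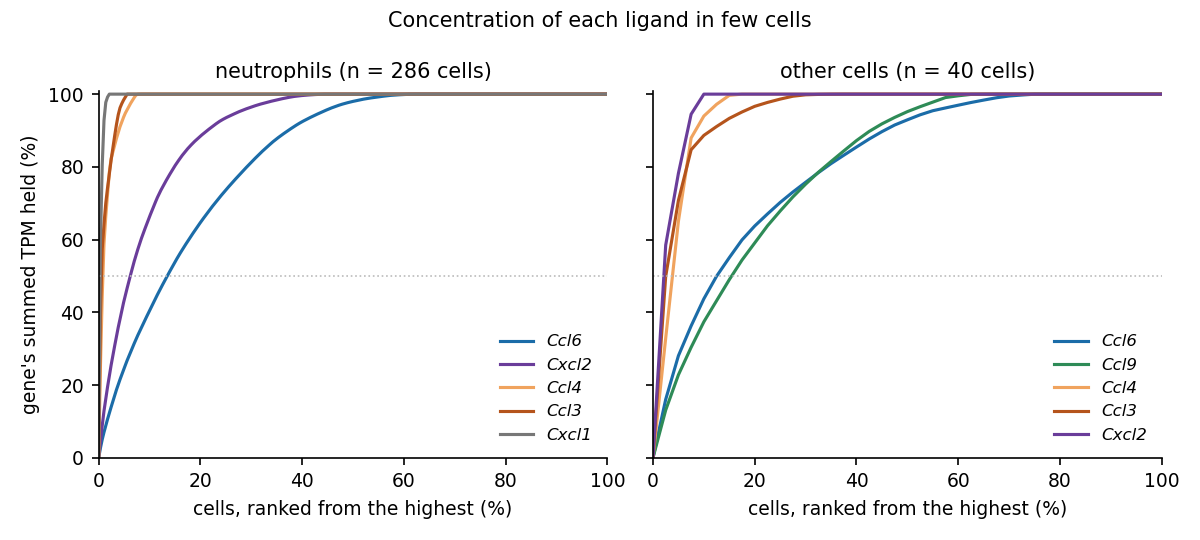
Percent of a gene's summed TPM held by the highest-ranked cells, against the percent of cells counted, in neutrophils and in other cells; the dotted line marks 50%. The curves of Ccl6 rise slowly, while the few highest cells hold most of Ccl3 and Ccl4 in both classes.

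Where present, the concentrated ligands were at high levels. The 3 neutrophils highest in Ccl4 had 17421, 13262 and 10001 TPM, and the median of the 24 cells above 0 was 1001 TPM. All 3 were in replicate 1. The 3 other cells highest in Ccl3, at 17827, 7465 and 4980 TPM, were also the 3 highest in Ccl4, at 7514, 7343 and 5228 TPM; 2 were on plate 1 and 1 on plate 2. In the other cells 6 of the 7 with Ccl4 also had Ccl3, where the product of shares gives 2.63 cells. In neutrophils 3 of the 24 with Ccl4 also had Ccl3, where the product gives 1.34. The ratios to the product, 2.29 and 2.23, cannot be compared between the classes, since their upper limit depends on the shares. Ccl3 was above 0 in 85.7% of other cells with Ccl4 and 27.3% without, and in 12.5% and 4.96% of neutrophils. Among the 144 neutrophils at or above their plate's median number of genes, 0 of 5 with Ccl4 had Ccl3.

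Within neutrophils, Ccl6 and Cxcl2 were found in the same cells more often than the product of their shares gives. Both were above 0 in 114 neutrophils against 83.8 from the product, a ratio of 1.36. Ccl6 was above 0 in 87.0% of neutrophils with Cxcl2 and in 44.5% of those without. The difference was in the same direction on every plate, from 90.0% against 32.4% on plate 1 to 79.4% against 54.5% on plate 4. Ccl3 was with Cxcl2 in 12 of its 16 cells, where the product gives 7.33, and with Ccl6 in 14, where it gives 10.2. Ccl4 was with Ccl6 in 22 of its 24 cells against 15.4 from the product, but with Cxcl2 in 11 against 11.0. Cxcl1 was with Cxcl2 in 5 of its 6 cells against 2.75, and with Ccl6 also in 5, against 3.84. Ccl9 was with Ccl6 in 33 of its 54 neutrophils, where the product gives 34.6. Members per neutrophil ran from 0 in 67 cells, 1 in 73 and 2 in 106 to 3 or more in 40, with 5 the most. These counts take any value above 0, so they include Ccl9, which was below 10 TPM in 52 of its 54 neutrophils. The neutrophil with 5 members had Ccl9 at 1.92 TPM.

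Il1b, the gene of interleukin 1 beta, followed the same cells. Ccl6 was above 0 in 86.4% of neutrophils with Il1b and 31.6% of those without, and Cxcl2 in 62.7% and 21.4%. Of the 16 neutrophils with Ccl3, 15 had Il1b, where the product gives 9.45, and of the 24 with Ccl4, 21 had it, against 14.2. The number of genes above 0 moved with these groups in the opposite direction: its median was 1499 in neutrophils with Ccl6 and 2039 without, and 1509 with Cxcl2 and 1832 without. Among the 144 neutrophils at or above their plate's median number of genes, the ratio for Ccl6 with Cxcl2 was 1.66, with Ccl6 in 68.2% of cells with Cxcl2 and 29.0% without. The upper limit of this ratio depends on the shares, so 1.66 cannot be set against the 1.36 of all neutrophils.

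The genes most like Ccl6 across neutrophils, by Spearman correlation within each plate averaged over 4 plates and 4697 genes, were H2-D1 (0.76), Srgn (0.75) and Dusp1 (0.73). Il1b ranked 11th at 0.65 and Cxcl2 76th at 0.44. For Cxcl2 they were Zfp36 (0.54), Junb (0.53) and Srgn (0.53), with Il1b 5th at 0.51 and Ccl6 12th at 0.44. H2-D1 is a class I antigen presentation gene, Srgn the granule proteoglycan serglycin, Dusp1 a phosphatase of MAP kinases and Zfp36 an RNA-binding protein that shortens the life of cytokine mRNAs. The number of genes above 0 correlated at -0.60 with Ccl6 and -0.36 with Cxcl2. These correlations are across cells that share library and depth, and are descriptions. For Ccl9 no gene exceeded 0.26.

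Ccl6, Cxcl2, Ccl4 and Ccl3 were detected most often in neutrophils with low levels of granule genes. Within each plate, neutrophils were ranked by their mean log2(TPM + 1) over 8 specific granule genes (Ltf, Camp, Ngp, Lcn2, Cd177, Chil3, Mmp8 and Itgb2l) and divided into 3 groups of near equal size, 94 granule-low, 98 granule-middle and 94 granule-high cells. Ccl6 was above 0 in 91 of 94 granule-low, 62 of 98 granule-middle and 30 of 94 granule-high cells. Cxcl2 was above 0 in 65, 42 and 24 cells, Ccl4 in 17, 6 and 1, and Ccl3 in 13, 1 and 2. Of 18 neutrophils with at least 5 proliferation genes above 0, 2 had Ccl6 above 0. Ccl3, Ccl4 and Cxcl2 were listed at 0 in all 18. Over all neutrophils Ccl3 and Ccl4 were above 0 in only 5.59% and 8.39%, so 0 of 18 says little about either. Within 0.25 SD of the plate's scores, 35 cells lay near the lower border and 86 near the upper, so the groups are ranges of a score and not cell types.

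Between granule-low and granule-high cells, 5719 genes were tested, and 12.2% were called, 8.39% higher in granule-low cells and 3.85% lower. The median difference of all genes was 0.24. Of the 8 members, 4 passed the filter, and all 4 of these were higher in granule-low cells. Ccl3 and Ccl4 reached the 10 cells above 0 only through granule-low cells, so their calls could go only one way. Ccl6 averaged 6721 and 5803 TPM in granule-low cells and 129 and 302 TPM in granule-high cells. Its log2 difference was 4.98 (SE 0.31, adjusted p = 8.29e-05). Cxcl2 averaged 2635 and 1697 TPM against 386 and 277 TPM, a log2 difference of 2.69 (SE 0.19, adjusted p = 3.63e-06). For both genes the averages of the groups were far apart in both replicates.

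Ccl4 averaged 1120 and 246 TPM in granule-low cells and 0 and 12.3 TPM in granule-high cells, with a log2 difference of 7.17 (SE 1.37, adjusted p = 0.0276). Ccl3 averaged 254 and 159 TPM against 0 and 18.6 TPM, with 5.51 (SE 1.05, adjusted p = 0.00995). Since both were listed at 0 in granule-high cells of replicate 1, the size of these differences depends on the pseudocount. That of Ccl3 was lost without the block (adjusted p = 0.0561), without replicate 1 (adjusted p = 0.136), without proliferating neutrophils (adjusted p = 0.0666) and with a pseudocount of 0.1 (adjusted p = 0.0648). That of Ccl4 was lost with 2 groups in place of 3 (adjusted p = 0.0676) and with the score taken as its residual on the number of genes above 0 (adjusted p = 0.301). With that residual score Ccl6 differed by 3.94 and Cxcl2 by 2.49, and both stayed called (adjusted p = 9.22e-06 and 7.97e-06).

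**Figure D4:**
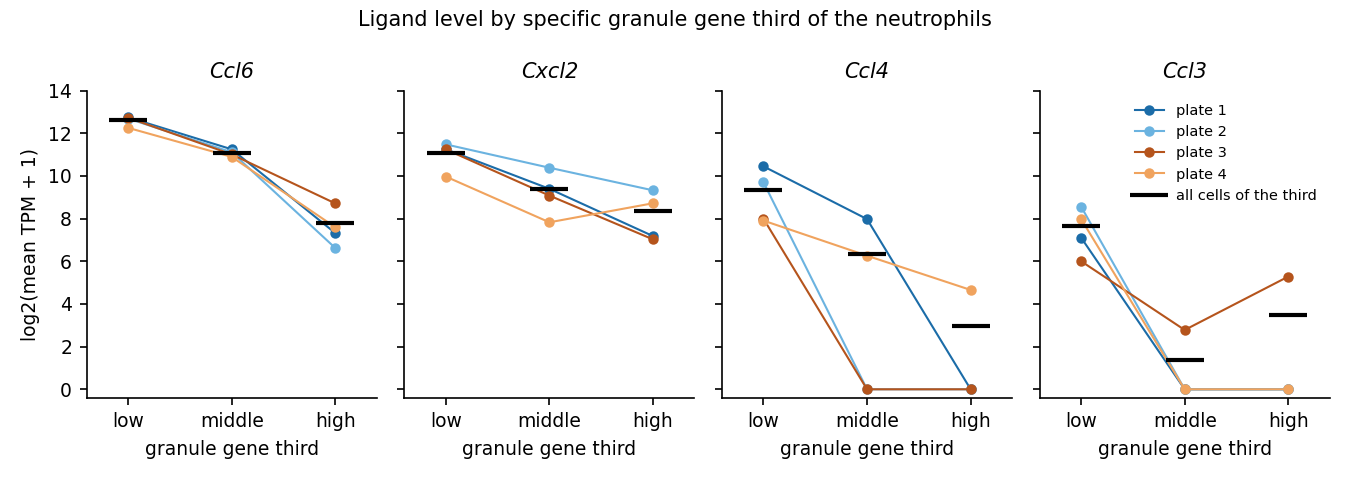
Mean level of 4 ligands in neutrophils low, middle and high in specific granule genes, as log2(mean TPM + 1); coloured points are plates and black bars all cells of a group. Ccl6 falls from low to high on every plate, and Ccl4 and Ccl3 are at 0 in granule-high cells of 3 plates each.

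The granule groups also differed in depth and in other gene groups. Of 5 tested receptors 4 were higher in granule-low cells, and of 13 interferon-induced genes 4 were higher and none lower, with a median of 1.48; the mean of log2 values gave 3 higher and 4 lower for the latter. The median number of genes above 0 was 1375 in granule-low and 2004.5 in granule-high cells. Of 16 tested genes of the immediate early list, which respond first to a stimulus, 14 were higher in granule-low cells and none lower, with a median of 2.34. Of 17 tested NF-kB genes, 6 were higher and none lower, with a median of 1.33. Over all genes 8.39% were higher. Without replicate 1, 2 of 17 NF-kB genes and 2 of 8 interferon-induced genes were higher, as were 2 of 4 receptors. The immediate early list then had 11 of 16 higher. Without replicate 2 these counts were 4 of 17, 2 of 9, 3 of 4 and 9 of 14, in the same order. Of all genes, 207 of 4686 were higher without replicate 1 and 173 of 4890 without replicate 2. Il1b, which is on the NF-kB list, averaged 15244 and 18760 TPM in granule-low cells against 256 and 344 TPM in granule-high cells. With the mean of log2 values per cell, the calls over all genes turned from 480 higher and 220 lower to 327 higher and 1533 lower, and the NF-kB genes to 4 higher and 1 lower with a median of 0.03. The part of depth in these differences was not tested beyond the residual score, under which the groups still differed in median genes above 0 (1497 against 1918 in replicate 1, 1383 against 1668 in replicate 2).

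A last comparison set neutrophils with Cxcl2 above 0 against those with Cxcl2 at 0. There were 68 and 63 cells with Cxcl2 in replicates 1 and 2, and 63 and 92 without. Of 5852 genes tested without Cxcl2, 3.09% were called, 1.88% higher with Cxcl2 and 1.21% lower; the mean of log2 values gave 211 higher and 706 lower, against 110 and 71. Of the 8 members, 3 were tested: Ccl6 and Ccl3 were higher and Ccl4 was not called. Ccl3 was above 0 in 12 neutrophils with Cxcl2 and 4 without, so it reached the 10 cells only through the former. Ccl6 averaged 4756 and 3697 TPM with Cxcl2 and 1197 and 1993 TPM without, a log2 difference of 1.44 (SE 0.22, adjusted p = 0.00471). Ccl3 averaged 152 and 124 TPM against 9.83 and 15.3 TPM, with 3.38 (SE 0.52, adjusted p = 0.00466). The groups did not overlap for either gene, but the share of all tested genes without overlap was not counted. Ccl4 differed by -0.05 (adjusted p = 0.987), with opposite signs in the 2 replicates. Ccl6 lost its call without the block (adjusted p = 0.0555) and without replicate 1 (adjusted p = 0.0773), and Ccl3 with averages per plate (adjusted p = 0.0511) and without replicate 1 (adjusted p = 0.0915). Among neutrophils at or above the median number of genes, Ccl6 differed by 2.51 (adjusted p = 0.00606).

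Of 17 tested NF-kB genes, 6 were higher with Cxcl2, 11 were not called and none was lower, against 1.88% of all genes higher, and the median of the list was 1.07 against 0.04 for all genes. The mean granule score moved with this split, at 6.77 in neutrophils with Cxcl2 and 10.4 in those without, and its part in these differences was not tested. The largest differences were those of Tnfaip3, an inhibitor of NF-kB that averaged 212 and 374 TPM with Cxcl2 and 40.2 and 9.72 TPM without (log2 difference 3.75), and of Nfkbia, the inhibitor IkB alpha, at 2924 and 2660 TPM against 584 and 776 TPM (2.05). Il1b (1.80) and Nfkbid (1.69), a nuclear IkB protein, followed. Of the 16 tested immediate early genes, 11 were higher and none lower, with a median of 1.43. They included Dusp2 (3.84), a phosphatase of MAP kinases, Gadd45b (3.03), a stress response gene, and the transcription factors Egr1 (2.64) and Atf3 (1.97). Of the 13 tested interferon-induced genes only Slfn2 was higher (1.02), and the list's median was 0.83. Without replicate 2 the NF-kB count fell to 2 of 17 and the immediate early count to 3 of 14. Of all 4955 genes tested there, 12 were higher. Without replicate 1 the list counts were 4 of 17 and 8 of 16, and over all genes 34 of 4758. Without the replicate block they were 3 of 17 and 7 of 16, and over all genes 33 of 5852. No interferon-induced gene was called without the block.

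**Figure D5:**
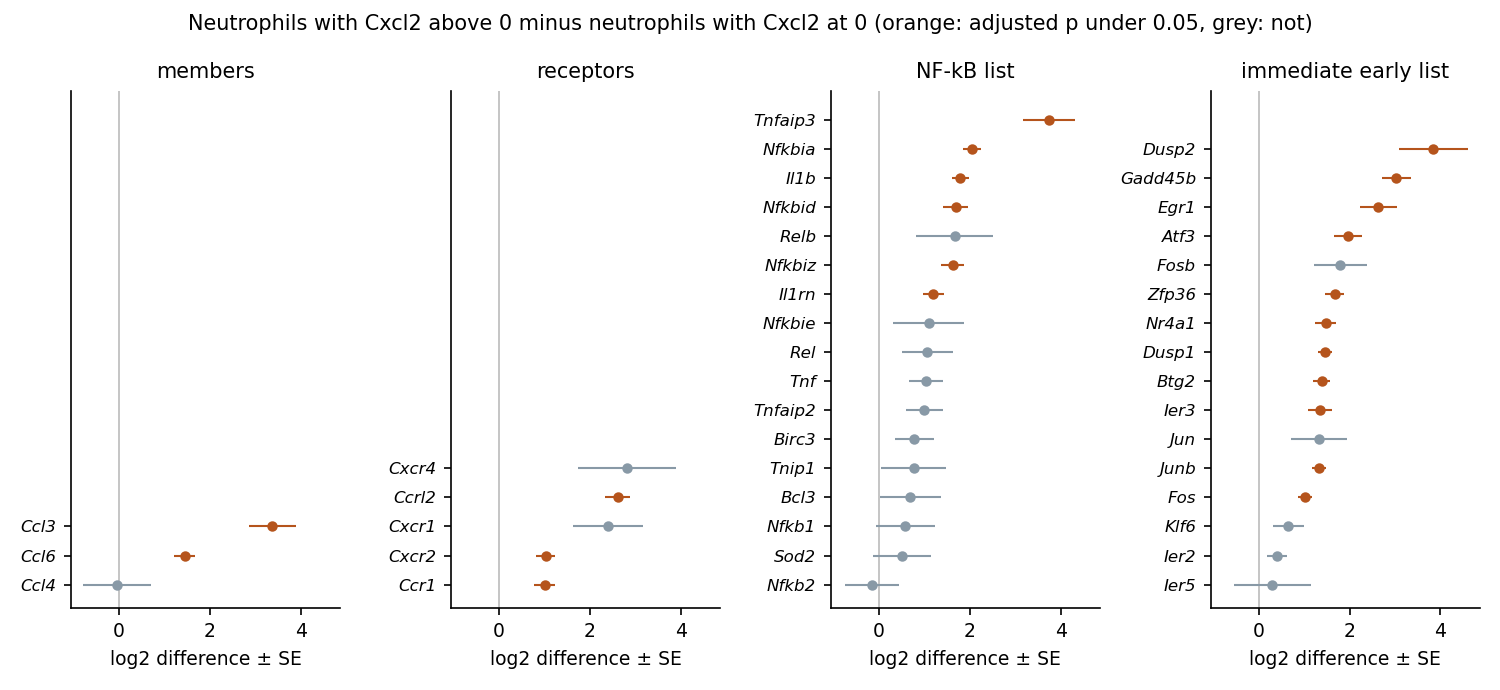
Log2 difference (± SE) between neutrophils with Cxcl2 above 0 and at 0 for the tested members, receptors, NF-kB genes and immediate early genes; orange points had an adjusted p under 0.05 by limma. Nearly all points lie to the right of 0, with Ccl4 and Nfkb2 just below it.

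The receptors of these ligands were unevenly spread. Of 23 in the list 7 were tested between the classes: Ccr1, Cxcr1 and Cxcr2 were higher in neutrophils, Ccr2 and Cx3cr1 were lower, and 2 were not called. Cxcr1, a further receptor for CXC ligands, is named after its values were seen. Ccr2 and Cx3cr1 passed the filter only through the other cells and so had to differ. Over all genes 5.23% were higher and 17.4% lower. The 3 higher receptors fell to 2 without the block and to 1 with averages per plate. They fell to 0 of 5 without replicate 1 and to 1 of 6 without replicate 2. In these settings, 247 of 7091, 396 of 7077, 43 of 5506 and 133 of 6266 of all genes were higher. Cxcr2, the receptor of Cxcl1 and Cxcl2, averaged 1303 and 1301 TPM in neutrophils against 361 and 427 TPM in other cells, a log2 difference of 1.73 (adjusted p = 0.000179). It was above 0 in 278 neutrophils and 35 other cells, but at a median of 4.62 TPM among those 35. Ccr1, a receptor of Ccl3, Ccl6 and Ccl9, averaged 514 and 599 TPM in neutrophils and 377 and 166 TPM in other cells, with 1.15 (adjusted p = 0.0405). Ccr2, the monocyte receptor of Ccl2, averaged 0.114 and 0.126 TPM in neutrophils against 321 and 488 TPM in other cells, and Cx3cr1, the receptor used in the sort, 0.143 and 0.0672 TPM against 105 and 145 TPM. Ccrl2, an atypical receptor, was above 0 in 73 neutrophils and 12 other cells and was not called between the classes (0.31, adjusted p = 0.639). Cxcr4, a retention receptor of the bone marrow, was above 0 in 58 neutrophils and 19 other cells and was not called either (1.05, adjusted p = 0.547).

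Receptors also moved with Cxcl2 among neutrophils. Of 5 tested, 3 were higher in cells with Cxcl2 and none lower, against 1.88% and 1.21% of all genes. Without the replicate block 0 of 5 were called, without replicate 2 0 of 4 and without replicate 1 1 of 4. Of all genes, 33 of 5852 were higher without the block, 12 of 4955 without replicate 2 and 34 of 4758 without replicate 1. The granule score also moved with this split, and 4 of 5 tested receptors were higher in granule-low cells. The part of the score in the receptor differences was not tested. Ccrl2 averaged 639 and 1076 TPM with Cxcl2 and 83.5 and 217 TPM without, a log2 difference of 2.61 (SE 0.27, adjusted p = 0.000557). Cxcr2 (1.03, adjusted p = 0.0243) and Ccr1 (1.01, adjusted p = 0.0366) differed less. Cxcr2 itself was above 0 in all 131 neutrophils with Cxcl2, but also in 278 of all 286 neutrophils. The product of shares gives 127 cells with both, so this count is near the share over all neutrophils.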

How the data were processed

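Single cells of Optn KO mouse spinal cord were measured by SmartSeq2. The authors deposited 1 table of TPM per gene and cell; per the file headers and the submitters' processing notes the values come from RSEM (version not given) on mm10. For the aligner, the annotation and the use of strand, the sources used here give nothing. Every column summed to 1000000, so depth is unknown and no count test was run. No further cell filter was applied (lowest number of genes above 0, 675) and no doublet caller was run. The members and gene lists were chosen with earlier results of these data known, and what those results already showed is no independent support.

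TPM was averaged per class and replicate, and log2(mean + 1) was tested with limma 3.58.1 (trend and robust) in R 4.3.3, with the replicate as a block, over genes with a mean of at least 5 TPM and at least 10 cells above 0, and Benjamini-Hochberg adjustment at 0.05. S100a8 and S100a9, the granule list or Cxcl2 were left out where they defined the classes. Both classes of a replicate come from the same sample, which is why it is a block; deviations of same-numbered averages correlated at 0.0327, 0.0145 and 0.0030 over genes. With 4 averages, 1 residual degree of freedom remains, so calls lean on limma's variance prior. Tested on simulated data, most draws gave few false calls, but single draws gave many. Exact binomial intervals came from scipy 1.17.1. Named genes were the members, other ligands above 0 in at least 5% of a class, receptors in at least 25%, the 3 genes most like a member, and up to 4 genes per list with the largest difference by Cxcl2. Il1b and the gene pairs by detection were reported beside them. Alternatives were other pseudocounts, filters, averages, borders, scalings and left-out replicates. Leaving out each gene's highest cell and keeping only other cells with monocyte markers were chosen after seeing the data.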

Additional observations from a re-analysis of the deposited data

How the results depend on the processing

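Over 12 member differences and 161 alternatives, 122 kept direction and side of the threshold, 29 lost the call and 10 changed sign. The kept ones include a neutrophil border at 5000 TPM. It places every cell as the border at 10000 TPM does, so its results could not differ. No filter on low values ended every call (0 genes in each comparison, by limma; 2313, 1860 and 849 at an unadjusted p under 0.05). Neutrophils against other cells called 1602 genes, 3080 with the mean of log2 values, 1002 without each gene's highest cell, and 169 to 521 without a replicate. The granule groups called 700 genes, 371 with a pseudocount of 0.1, 1860 with the mean of log2 values, 433 with 2 groups in place of 3, 323 without proliferating neutrophils, and 223 to 290 without a replicate. The split by Cxcl2 called 181 genes, 85 and 86 with pseudocounts of 0.1 and 10, 917 with the mean of log2 values, 307 rescaled, 102 in cells with at least 1000 genes, 91 with Cxcl2 of at least 10 TPM, 75 at or above the plate's median genes, 320 without each gene's highest cell, and 24 to 52 without a replicate. Without the replicate block the counts were 1144, 524 and 59, and the members that lost their call are named with their values in the report.

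Ccl6 between the classes turned to -0.56 with the mean of log2 values. Ccl4 between the classes turned to 0.74 with averages per plate, -1.01 to 2.50 without a replicate and 0.0925 against other cells with monocyte markers. Ccl4 by Cxcl2 turned to 0.0309 with a pseudocount of 10, 0.31 with averages per plate, 0.0375 with the mean of log2 values, 0.0111 rescaled, -1.75 to 2.37 without a replicate and 0.70 without each gene's highest cell. The cause was not tested. Cxcl1, Cxcl10 and Cxcl16 were above 0 in too few cells to be tested.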
